A study of Mus musculus with 11 samples.

Results

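The matrix metalloproteinases, the ADAM and ADAMTS proteases, their tissue inhibitors and the lysyl oxidases were examined in gonadal white adipose tissue (WAT) of mice on a high fat diet. Members were chosen by gene symbol, as every Mmp, Timp, Adam, Adamts and Adamts-like symbol in the deposited table together with Lox, Loxl1, Loxl2 and Loxl3. This gave 48 members of 12787 listed genes, namely 13 Mmp, 4 Timp, 10 Adam, 12 Adamts, 5 Adamts-like and 4 lysyl oxidase genes. Adamdec1, which the rule also names, was not listed. A RefSeq table for GRCm38.p6 holds 90 protein-coding symbols that fit the rule, and the other 42 were not in the deposited table. Per the study methods, genes under 1 CPM in all samples were removed (CPM, the reads of a gene scaled to a common library size). The gene number that the methods give for this filter differs from that of the table. Whether the limit accounts for each of the 42 was not tested.

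The samples came from male C57Bl6/J mice, which all received a 60% high fat diet (HFD) for 20 weeks. The control group of 5 mice had the diet with vehicle only (HFD), and the treated group of 6 mice had the diet with 0.06% w/w iodomethylcholine (HFD + IMC), which inhibits the gut bacterial enzyme that turns choline into trimethylamine. One further control was dropped by the submitters at quality control, and the sample labels give no low fat diet group and no age. The study reported that IMC blunted obesity and reduced fat mass in mice on such a diet. The drug and a lower adiposity therefore cannot be told apart here. Each mouse gave 1 library of whole tissue, so fewer cells of a type and less RNA per cell cannot be told apart.

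Matrix metalloproteinases (MMPs) are zinc enzymes that are made as inactive proforms and cut collagen, elastin and other matrix proteins once the propeptide is removed. The tissue inhibitors of metalloproteinases (TIMPs) bind and block their active site, and TIMP3 also blocks several ADAM and ADAMTS enzymes. ADAMs are membrane-bound proteases that release the outer part of growth factors, cytokines and receptors, whereas the secreted ADAMTS enzymes process procollagen and cleave proteoglycans. Lysyl oxidases act in the opposite direction on the matrix, as they crosslink collagen and elastin fibres. In adipose tissue, these enzymes take part in the matrix remodelling that goes with fat cell enlargement and macrophage entry.

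A cluster of Mmp genes on mouse chromosome 9 held 4 members, and all 4 were lower in the HFD + IMC mice. Their upstream sequences are shown because these neighbours moved together. Each line gives the 250 bases before a RefSeq start (GRCm38.p6, + strand, 5′ to 3′), and capitals mark an AP-1 element (TGAGTCA, searched on both strands and thus also read as TGACTCA) or a TATA box (TATAAA, searched on the gene strand).
Mmp13, chr9:7272264-7272513: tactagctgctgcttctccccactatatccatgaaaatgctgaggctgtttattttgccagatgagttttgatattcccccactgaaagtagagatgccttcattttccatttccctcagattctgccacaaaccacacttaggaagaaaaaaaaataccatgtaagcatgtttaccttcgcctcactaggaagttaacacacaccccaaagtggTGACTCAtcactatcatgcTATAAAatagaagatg
Mmp12, second start, chr9:7347124-7347373: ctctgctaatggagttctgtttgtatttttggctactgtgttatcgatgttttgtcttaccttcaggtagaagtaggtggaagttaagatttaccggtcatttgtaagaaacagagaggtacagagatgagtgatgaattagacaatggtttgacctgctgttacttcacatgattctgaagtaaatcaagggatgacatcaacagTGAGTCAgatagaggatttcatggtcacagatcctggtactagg
Mmp3, chr9:7445572-7445821: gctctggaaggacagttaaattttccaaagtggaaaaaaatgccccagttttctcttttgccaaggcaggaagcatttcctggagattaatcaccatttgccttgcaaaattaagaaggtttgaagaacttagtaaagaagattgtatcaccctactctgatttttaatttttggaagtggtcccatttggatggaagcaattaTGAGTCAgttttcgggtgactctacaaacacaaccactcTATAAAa
Mmp27, chr9:7571146-7571395: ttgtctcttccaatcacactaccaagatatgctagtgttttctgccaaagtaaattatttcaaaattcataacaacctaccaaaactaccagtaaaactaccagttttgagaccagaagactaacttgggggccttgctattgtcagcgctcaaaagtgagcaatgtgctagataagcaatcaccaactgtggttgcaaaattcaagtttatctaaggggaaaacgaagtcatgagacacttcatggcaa

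The AP-1 element ended 28 bases before the annotated start of Mmp13, 37 bases before the second start of Mmp12 and 39 bases before the start of Mmp3. Mmp13 and Mmp3 also held the TATA box, which ended 10 bases and 1 base before the annotated start. The Mmp27 window held neither. All these distances are to annotated starts, and the starts used in this tissue were not measured. The first start of Mmp12, at the beginning of the annotated gene (window chr9:7344147-7344396), held neither motif and is not printed. The RefSeq table had upstream windows for 30 members at 34 starts. An AP-1 element was found at 4 of these 34 starts, in Mmp13, Mmp3, 1 of 2 starts of Mmp12 and 1 of 3 starts of Adam19, against 4.46% of the 32851 windows of all genes. All 4 genes were among the 13 lower members with a sequence, at 17 starts, and the other lower members had no element in their windows. No window of the 8 higher members with a sequence or of the 9 without a call held it. At the share of all windows, sets this small would often hold none, and a link between element and direction was not tested. A TATA box stood in windows of Mmp13, Mmp3, Adamts1 and Adamtsl2, against 7.59% of all windows. It ended 26 bases before the start in Adamts1 and 24 bases before it in Adamtsl2. Both motifs stood together in Mmp13 and Mmp3, against 0.481% of all windows. These matches are a description of the letters and not of bound sites.

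The libraries held 22320022 to 25155366 reads on the listed genes, so that 1 read was worth 0.0403 to 0.0450 CPM, and every member had at least 35 reads in every mouse. The tissue label was checked against markers. All 8 adipocyte markers were listed, with Adipoq, the adiponectin gene, at 9.74 ± 0.36 log2 CPM (SD, n = 5) in HFD mice. None of 7 epididymis markers and none of 7 T and B lymphocyte markers was listed. Why a gene is missing from the table was not tested, so these absences do not show that such RNA was lacking. Values below are log2 CPM as deposited, differences are HFD + IMC minus HFD with the standard error of a limma fit, and p-values were adjusted over all 12787 genes. A gene was called when this adjusted p was under 0.05. These p-values measure the spread between these 11 mice, with 1 library each and no batch stated. Per the study methods mice were housed in groups. The cages of these mice were not available, so mice were treated as independent and a shared cage effect was not tested.

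Of the 48 members, 34 were called, 12 higher and 22 lower with IMC. The shares were 70.8% of members against 40.9% of all listed genes for either direction, 25.0% against 20.0% for higher genes and 45.8% against 21.0% for lower genes. The median difference was -0.28 log2 over the members and -0.03 over all listed genes. The groups were fully apart in 17 members (35.4%) and in 23.1% of all genes, with 13 of the members lower and 4 higher. Of all 12787 genes, 1349 were apart and lower and 1602 apart and higher. A call with a change of at least 0.5 log2 was made for 14 members, 10 lower and 4 higher, where 12.4% of all genes met the same rule. Among all 12787 genes this rule gave 634 lower and 955 higher, so the larger changes of all genes were more often rises. The subfamilies differed in direction. The Mmp genes were mostly lower, with 10 of 13 lower and 2 higher, and 3 of the 4 lysyl oxidases were lower. The Adam genes were split into 3 higher and 3 lower of 10, and the Adamts genes into 4 higher and 4 lower of 12.

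**Figure D1:**
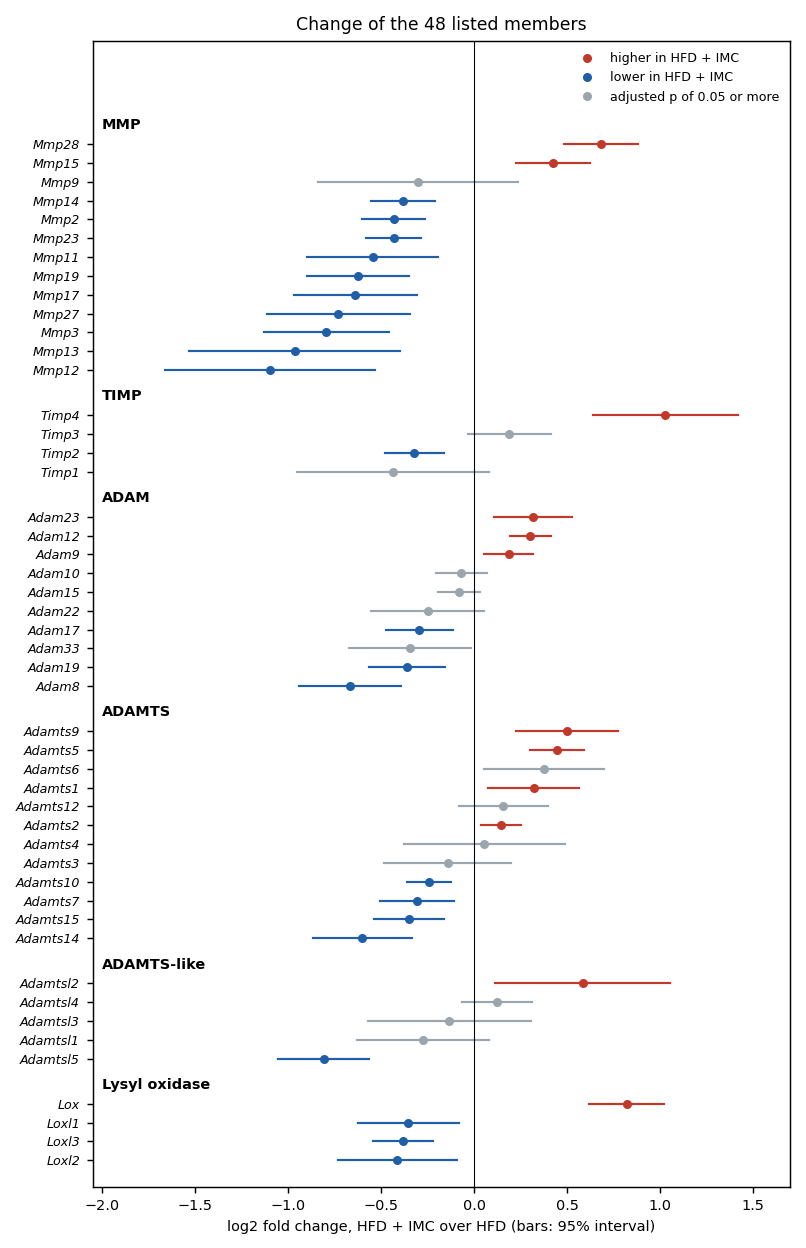
Log2 fold change of each of the 48 members (x axis, HFD + IMC over HFD) with its 95% interval, grouped by subfamily. Blue points were lower, red points higher and grey points not called at an adjusted p of 0.05, and the 10 lower Mmp genes stand together to the left of zero while Timp4 has the highest change at 1.03.

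Mmp12, the macrophage elastase, had the largest fall of all members. Its values in the 5 HFD mice were 12.40, 11.63, 11.40, 10.73 and 11.48 log2 CPM, and the 6 HFD + IMC mice ran from 9.81 over a median of 10.47 to 10.99. HFD mouse 4, at 10.73, lay below the highest treated mouse, so the groups overlapped in this 1 control. The difference was -1.10 ± 0.26 log2 (SE, adjusted p = 0.00503, limma), a level 0.468 times that of the controls.

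Mmp13, a collagenase that cuts fibrillar collagen, was far less expressed and fell by a similar amount. HFD mice had 3.78, 3.31, 3.44, 2.89 and 2.57 log2 CPM, and the treated mice ranged from 1.24 to 2.73 with a median of 2.44. The groups overlapped, since HFD mouse 5 was below the highest treated mouse. Its log2 difference was -0.96 ± 0.26 (adjusted p = 0.0108).

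Stromelysin 1, encoded by Mmp3, degrades many matrix proteins and can activate other proMMPs. Its HFD values were 6.47, 5.83, 5.92, 5.66 and 5.92 log2 CPM, against 4.81 to 5.60 in the treated mice with a median of 5.16. All treated mice were below all controls. Mmp3 was lower by -0.79 ± 0.16 log2 (adjusted p = 0.00152).

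Mmp27, a little studied member of the stromelysin group, was near the lower end of the measured range. HFD mice had 2.10, 1.87, 1.89, 1.84 and 1.75 log2 CPM, which all lay above the treated mice at 0.62 to 1.64 with a median of 1.05. The controls were close to each other and the treated mice spread over about 1 log2. The change was -0.73 ± 0.18 log2 (adjusted p = 0.0057).

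These 4 genes lie within 309.4 kb, on the + strand of chromosome 9. Mmp13 starts at chr9:7272514 and Mmp27 ends at chr9:7581885 (GRCm38.p6), and the 6 other RefSeq Mmp genes of this cluster, Mmp1b, Mmp1a, Mmp10, Mmp8, Mmp20 and Mmp7, were not listed. The 7 listed genes within 1000 kb on either side had a median difference of 0.0015 log2. Of these neighbours, 2 were lower (Dcun1d5 by -0.21 and Birc3 by -0.28 log2) and 2 higher (Pdgfd by 0.26 and Yap1 by 0.56 log2) and the remaining 3 were not called. Exons of Mmp12 overlap those of Mmp1b on the other strand. The libraries were directional, but the strand setting of the authors' count was not given in the sources used here, so reads of such pairs may not be told apart.

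**Figure D2:**
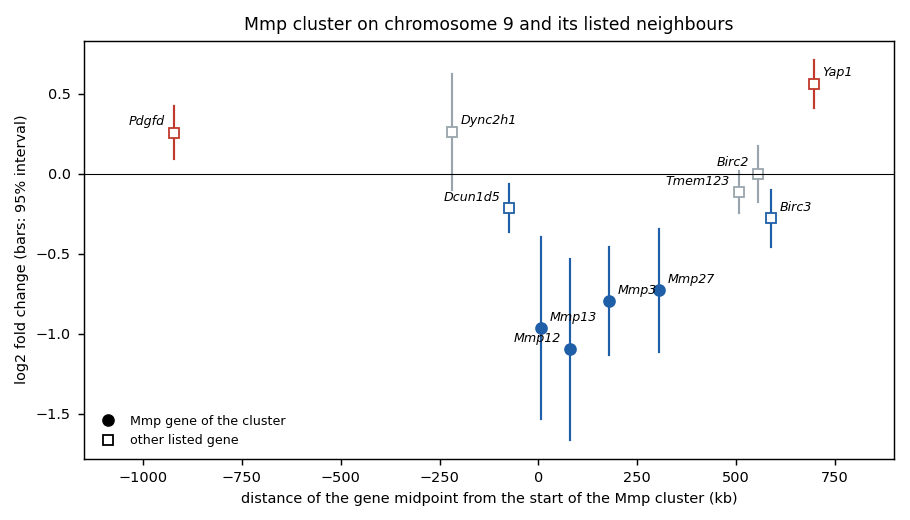
Log2 fold change with its 95% interval (y axis) against the distance of each gene's midpoint from the start of the Mmp cluster in kb (x axis). Filled circles are the 4 Mmp genes, at -0.73 to -1.10, and open squares are the 7 listed neighbours, at -0.28 to 0.56 (blue lower, red higher, grey not called).

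Among the other secreted MMPs, Mmp19, which cuts basement membrane proteins, was clearly separated between the groups. Its level was 9.09, 8.72, 8.69, 8.54 and 8.50 log2 CPM in HFD mice and 7.76 to 8.48 in treated mice, with a median of 8.13. No treated mouse reached a control, although the nearest values, 8.50 and 8.48, almost touched. The difference was -0.62 ± 0.13 log2 (adjusted p = 0.00199). Exons of Mmp19 overlap those of Tmem198b and Gm47093.

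Mmp11, stromelysin 3, is unusual in that it is activated inside the cell. HFD mice had 5.36, 5.23, 5.52, 5.37 and 5.19 log2 CPM, and treated mice 4.29 to 5.32 with a median of 4.81. The treated mice varied more than the controls, and 1 of them reached the control range. Mmp11 was lower by -0.54 ± 0.16 log2 (adjusted p = 0.0175).

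Mmp2, the gelatinase A that fibroblasts make in large amounts, fell from 8.49 ± 0.16 (SD, n = 5) to 8.06 ± 0.12 log2 CPM (n = 6), a difference of -0.43 ± 0.08 (SE, adjusted p = 0.000946) with no overlap. Mmp9, the second gelatinase, was 1.77 ± 0.63 in HFD and 1.47 ± 0.28 log2 CPM in HFD + IMC mice and was not called (-0.30 ± 0.25, adjusted p = 0.36). Its difference depended on single controls, at -0.10 log2 without HFD mouse 2 and -0.46 without HFD mouse 1. Mmp9 was the only one of the 13 Mmp genes without a call.

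Of the membrane-bound MMPs, Mmp17 (MT4-MMP), which is held by a lipid anchor, had the lowest level per length of all members. Its values were 1.96, 1.59, 1.68, 1.41 and 1.31 log2 CPM in HFD mice and 0.62 to 1.14 in treated mice, with a median of 1.05. The groups did not overlap. Mmp17 changed by -0.64 ± 0.15 log2 (adjusted p = 0.00538). Mmp14 (MT1-MMP), the activator of proMMP2 on the cell surface, went from 7.91 ± 0.12 to 7.53 ± 0.17 log2 CPM (-0.38 ± 0.08, adjusted p = 0.00232) without overlap. Mmp23 was also lower in every treated mouse, with 5.49 ± 0.07 against 5.06 ± 0.14 log2 CPM (-0.43 ± 0.07, adjusted p = 0.000377).

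Only 2 Mmp genes were higher with IMC. Mmp28 (epilysin) is the secreted member known from keratinocytes and wound repair. It had 3.92, 4.19, 4.37, 4.19 and 4.47 log2 CPM in HFD mice and 4.69 to 5.05 in treated mice, with a median of 4.94, so that every treated mouse was above every control. The difference was 0.68 ± 0.09 log2 (adjusted p = 0.000142), and its exons overlap those of 1700020L24Rik. Mmp15 (MT2-MMP), a membrane-type enzyme, rose from 3.34 ± 0.13 to 3.76 ± 0.17 log2 CPM (0.42 ± 0.09, adjusted p = 0.00297), with overlap between the groups.

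**Figure D3:**
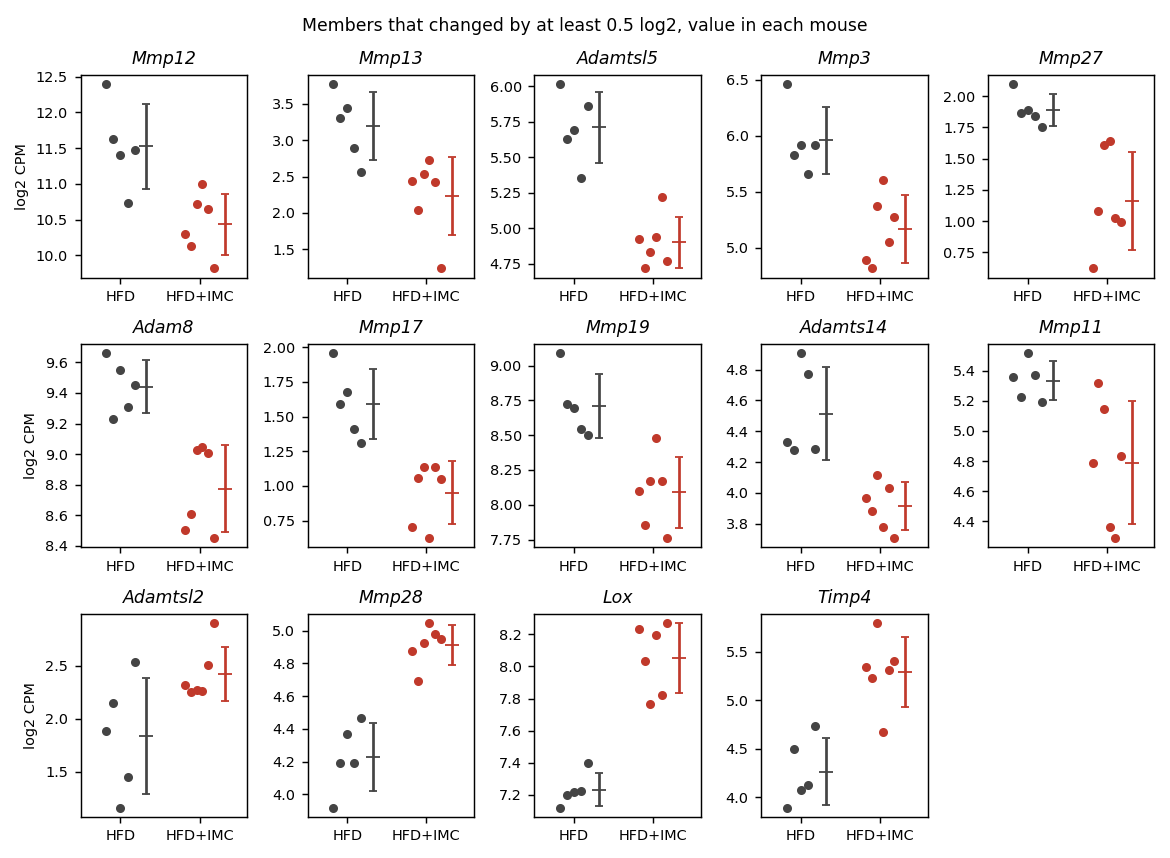
Log2 CPM (y axis, 1 panel per gene) in each HFD mouse and each HFD + IMC mouse for the 14 called members with a change of at least 0.5 log2. Points are mice, and 10 panels fall and 4 rise, with the groups apart in Adamtsl5, Mmp3, Mmp27, Adam8, Mmp17, Mmp19, Adamts14, Mmp28 and Lox.

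The 4 TIMP genes did not move together. Timp4, the inhibitor that is abundant in heart and adipose tissue, rose most of all members. HFD mice had 3.89, 4.50, 4.07, 4.13 and 4.73 log2 CPM and treated mice 4.67 to 5.80, with a median of 5.33. A single treated mouse, at 4.67, lay below the highest control. The difference was 1.03 ± 0.18 log2 (adjusted p = 0.000763), a level 2.04 times that of the controls. Timp4 lies in the interval of Syn2, and exons of the pair overlap.

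Timp2, the broad inhibitor that also takes part in proMMP2 activation by MT1-MMP, was lower with IMC. It fell from 10.26 ± 0.07 to 9.94 ± 0.14 log2 CPM (-0.32 ± 0.07, adjusted p = 0.00381), with no overlap. Timp1, an inhibitor that inflammatory signals induce, was 6.37 ± 0.41 in HFD and 5.94 ± 0.52 log2 CPM in HFD + IMC mice (-0.44 ± 0.24, adjusted p = 0.163). Timp3, which is bound to the matrix and blocks ADAM17, was 7.92 ± 0.20 and 8.11 ± 0.20 log2 CPM (0.19 ± 0.10, adjusted p = 0.161). Neither was called, but both were when HFD + IMC mouse 4 was left out, at -0.61 log2 for Timp1 (adjusted p = 0.0258) and 0.25 for Timp3 (adjusted p = 0.0459).

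Adam8, a membrane protease of myeloid cells, was the most highly expressed ADAM per length. Its HFD values were 9.66, 9.23, 9.55, 9.31 and 9.45 log2 CPM, and treated mice had 8.45 to 9.04 with a median of 8.81. All treated mice were below all controls, by -0.67 ± 0.13 log2 on average (adjusted p = 0.00122). Exons of Adam8 overlap those of Gm16201.

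Adam17, the enzyme that releases tumour necrosis factor and ligands of the epidermal growth factor receptor, fell from 7.22 ± 0.10 to 6.92 ± 0.19 log2 CPM (-0.29 ± 0.08, adjusted p = 0.0142). Adam19, which sheds neuregulins, fell from 6.43 ± 0.14 to 6.07 ± 0.20 log2 CPM (-0.36 ± 0.09, adjusted p = 0.00864). In both genes the groups overlapped. Adam10, the closest relative of Adam17 and the sheddase of Notch receptors, was 7.27 ± 0.09 and 7.20 ± 0.12 log2 CPM and was not called (-0.07 ± 0.06, 95% interval -0.21 to 0.07, adjusted p = 0.411).

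The 3 higher ADAMs rose by less than the fall of Adam8. Adam12, known from mesenchymal cells and preadipocytes, went from 6.17 ± 0.07 to 6.48 ± 0.09 log2 CPM without overlap (0.30 ± 0.05, adjusted p = 0.000626). Adam23, which lacks an active catalytic site, rose from 5.96 ± 0.20 to 6.28 ± 0.17 log2 CPM (0.32 ± 0.10, adjusted p = 0.0204), and Adam9, a widely expressed sheddase, from 7.76 ± 0.07 to 7.94 ± 0.12 (0.19 ± 0.06, adjusted p = 0.026). The calls of Adam9 and Adam23 did not hold when certain single mice were left out, though both differences stayed positive. Adam9 was lost without HFD mouse 4 or 5 or HFD + IMC mouse 1, 4 or 5 (0.16 to 0.17 log2, adjusted p = 0.0511 to 0.0637), and Adam23 without HFD mouse 3 or 4 (0.27 and 0.26 log2, adjusted p = 0.0582 and 0.0567). The other ADAMs without a call were Adam15, Adam22 and Adam33, with differences of -0.08, -0.25 and -0.35 log2. Adam33 was called only when HFD + IMC mouse 2 was left out (-0.43 log2, adjusted p = 0.0336).

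Adamts14, a procollagen N-proteinase that trims fibrillar procollagens, had the largest fall among the ADAMTS enzymes. It stood at 4.33, 4.28, 4.91, 4.77 and 4.29 log2 CPM in HFD mice and at 3.71 to 4.12 in treated mice, with a median of 3.92. The groups did not overlap (-0.60 ± 0.12 log2, adjusted p = 0.00209). Adamts2, another procollagen N-proteinase, went the other way, from 7.97 ± 0.06 to 8.11 ± 0.08 log2 CPM (0.14 ± 0.05, adjusted p = 0.0345). This small rise was lost without HFD mouse 2 or 4 or HFD + IMC mouse 1, 2 or 6 (0.12 to 0.13 log2, adjusted p = 0.0651 to 0.08) and with scaling by the total count (0.11, adjusted p = 0.0756). Adamts3, which belongs to the same enzyme group, was 1.69 ± 0.35 and 1.55 ± 0.16 log2 CPM and was not called (adjusted p = 0.495).

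The proteoglycan-cleaving ADAMTS enzymes were split in direction. Adamts5, an aggrecanase, rose from 8.20 ± 0.09 to 8.64 ± 0.13 log2 CPM with no overlap (0.44 ± 0.07, adjusted p = 0.000271). Adamts9 rose from 4.60 ± 0.21 to 5.10 ± 0.26 (0.50 ± 0.13, adjusted p = 0.00751, just under the 0.5 limit before rounding) and Adamts1 from 5.58 ± 0.18 to 5.90 ± 0.24 log2 CPM (0.32 ± 0.11, adjusted p = 0.0377). Adamts15 fell from 5.89 ± 0.13 to 5.54 ± 0.18 log2 CPM (-0.35 ± 0.09, adjusted p = 0.00703). Adamts4, also an aggrecanase, was 2.43 ± 0.47 and 2.49 ± 0.28 log2 CPM and was not called (adjusted p = 0.851).

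The call of Adamts1 was lost without HFD mouse 3, 4 or 5 or HFD + IMC mouse 1, 2 or 5 (0.26 to 0.34 log2, adjusted p = 0.0541 to 0.0958). Adamts7, which cleaves cartilage oligomeric matrix protein, fell from 3.37 ± 0.10 to 3.06 ± 0.18 log2 CPM (-0.31 ± 0.09, adjusted p = 0.0183) without overlap. Adamts10, a fibrillin-binding enzyme, fell from 6.18 ± 0.09 to 5.94 ± 0.09 (-0.24 ± 0.06, adjusted p = 0.00405). Adamts6 and Adamts12 were not called, at 0.38 and 0.16 log2. Adamts6 passed the threshold without HFD mouse 4 (0.45 log2, adjusted p = 0.0401) or HFD + IMC mouse 3 (0.46, adjusted p = 0.0182).

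The ADAMTS-like proteins share the non-catalytic domains of the family and have no protease domain. Adamtsl5 fell most among them. HFD mice had 6.02, 5.63, 5.69, 5.35 and 5.86 log2 CPM and treated mice 4.72 to 5.22, with a median of 4.88, so the groups were apart. The difference was -0.81 ± 0.11 log2 (adjusted p = 0.000172), the smallest adjusted p of the 22 lower members.

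Adamtsl2, a binding partner of fibrillins and of the latent complex of transforming growth factor beta, was the least certain of the higher members. HFD mice had 1.89, 2.14, 1.16, 1.45 and 2.54 log2 CPM and treated mice 2.25 to 2.91 with a median of 2.30. HFD mouse 5 lay inside the treated range. The rise of 0.58 ± 0.22 log2 (adjusted p = 0.0473) lost its call without any 1 of 9 mice, namely HFD mouse 1, 3 or 4 or any of the 6 treated mice, with 0.41 to 0.62 log2 and adjusted p of 0.0528 to 0.124. Adamtsl1, Adamtsl3 and Adamtsl4 were not called, at -0.27, -0.13 and 0.12 log2.

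Lox, the main lysyl oxidase of collagen and elastin, rose while Loxl1, Loxl2 and Loxl3 fell. Its values were 7.12, 7.20, 7.22, 7.23 and 7.40 log2 CPM in HFD mice and 7.76 to 8.27 in treated mice, with a median of 8.12. All treated mice were above all controls. The difference was 0.82 ± 0.09 log2 (adjusted p = 5.1e-05), the smallest adjusted p of the 48 members, and exons of Lox overlap those of AC161119.1.

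Loxl3 fell from 5.08 ± 0.06 to 4.70 ± 0.16 log2 CPM with no overlap (-0.38 ± 0.07, adjusted p = 0.00151). Loxl2, which crosslinks basement membrane collagen, fell from 6.82 ± 0.25 to 6.41 ± 0.32 (-0.41 ± 0.15, adjusted p = 0.039). Loxl1, the enzyme that acts on elastic fibres, fell from 7.49 ± 0.19 to 7.14 ± 0.28 log2 CPM (-0.35 ± 0.13, adjusted p = 0.039). The latter pair overlapped between the groups and lost their calls without single mice. Loxl2 was lost without HFD mouse 1, 2, 3 or 4 or HFD + IMC mouse 2 or 6 (-0.30 to -0.44 log2, adjusted p = 0.05 to 0.102), and Loxl1 without HFD mouse 1, 3 or 4 or HFD + IMC mouse 2, 3 or 6 (-0.28 to -0.35 log2, adjusted p = 0.0734 to 0.105).

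Levels of different genes were set side by side as CPM per kb of the longest annotated transcript. Mmp12 was the highest member in both groups, with 878 ± 379 CPM per kb in HFD and 397 ± 115 in HFD + IMC mice (SD). Timp2 came next, with 332 ± 16.8 and 266 ± 25.4, and Adam8 was the third, with 224 ± 27.0 and 143 ± 27.5 CPM per kb. In HFD mice the lowest value of Mmp12, 472, was above the highest of Timp2, 350, but in treated mice their ranges overlapped, at 249.6 to 564 for Mmp12 and 235 to 298 for Timp2. Mmp19, Mmp2, Adam15 and Timp1 followed in HFD mice at 124, 117, 102 and 97.1 CPM per kb. The ranges of these 4 genes overlapped.

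The other subfamilies were lower in level. Adamts2 had the highest mean of the ADAMTS enzymes, with 34.5 ± 1.36 CPM per kb in HFD and 38.2 ± 2.20 in treated mice, where its range of 34.6 to 40.8 overlapped that of Adamts5, at 32.9 to 43.1. Adamtsl5 led the ADAMTS-like genes with 27.1 ± 4.60 and 15.4 ± 2.02. Among the lysyl oxidases the order changed. Loxl1 was above Lox in HFD mice, with 55.1 ± 7.54 against 31.8 ± 2.29 CPM per kb, and Lox was above Loxl1 in treated mice, with 56.6 ± 8.32 against 43.5 ± 8.37. The ranges of this pair were apart in HFD mice but overlapped in treated mice, at 45.8 to 65.2 for Lox and 34.8 to 53.8 for Loxl1. Timp4, with the largest rise, remained the lowest of the TIMPs, at 3.58 ± 0.87 and 7.32 ± 1.76 CPM per kb, and Mmp17 was the lowest of all members, at 0.474 and 0.304.

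Mmp12 alone made up 33.4 ± 8.09% of the summed CPM of all members in HFD mice (SD, n = 5) and 20.9 ± 4.47% in HFD + IMC mice (n = 6). The summed CPM of the 48 members was 9172 ± 1668 and 6767 ± 578. Without Mmp12 it was 6006 ± 341 and 5335 ± 222, and these sums did not overlap, with a lowest control of 5689 and a highest treated mouse of 5562. The sum pools enzymes with inhibitors, is not scaled by length and is weighted to highly expressed genes. Mean CPM went from 1230 to 987 in Timp2 and from 699 to 445 in Adam8, while 12 of the 48 members were called higher.

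**Figure D4:**
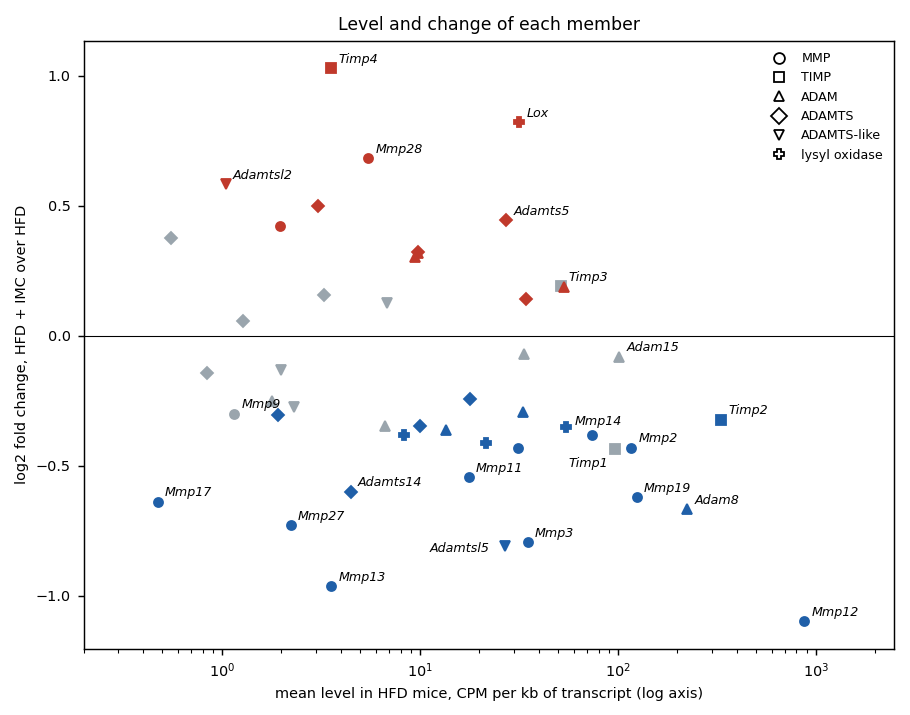
Log2 fold change (y axis, HFD + IMC over HFD) against the mean level in HFD mice in CPM per kb of transcript (x axis, log scale), 1 point per member with the shape showing the subfamily and the colour the call (blue lower, red higher, grey not called). Mmp12, at 878 CPM per kb, combines the highest level with the largest fall, and Timp4 rises from a low level of 3.58.

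Single mice led many members at once. HFD mouse 1 was the highest control in 12 of the 22 lower members and HFD mouse 3 in 8. HFD + IMC mouse 6 was the lowest treated mouse in 9 of the 22. HFD mouse 5 was the highest control in 7 of the 12 higher members. Without HFD mouse 1, 20 members were lower and 11 higher.

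The other genes of these pathways were taken from hand-written lists. Of all listed genes 40.9% were called, 20.0% higher and 21.0% lower. Several of the lists below have a share of calls near this, and no list was tested against it. Of 14 genes of plasminogen and propeptide activation, which turn proMMPs into active enzymes, 3 were higher and 3 lower. Serpine2, a serpin that blocks several serine proteases, rose by 0.38 ± 0.12 log2 (adjusted p = 0.0198). Plaur, the urokinase receptor, was lower at -0.46 ± 0.09 log2 (adjusted p = 0.00132). Of the 6 listed genes from 9 on other inhibitors and enhancers, 1 was higher and 1 lower. Pcolce, the enhancer of procollagen C-proteinases, changed by -0.53 ± 0.09 log2 (adjusted p = 0.00055) and Tfpi2, a serine protease inhibitor, by 0.34 ± 0.11 (adjusted p = 0.026). Pcolce2 was 0.23 log2 apart and not called (adjusted p = 0.0506).

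Of 11 listed partners of the ADAMs, which guide their trafficking and maturation, 4 were higher and 4 lower. Sh3pxd2a, the podosome scaffold TKS5, rose by 0.69 ± 0.09 log2 (adjusted p = 0.000117) and Tspan17, a tetraspanin that goes with ADAM10, by 0.34 ± 0.06 (adjusted p = 0.00106), whereas Frmd8, a stabiliser of the ADAM17 complex, was at -0.30 ± 0.06 log2 (adjusted p = 0.00113). Of 22 listed shedding substrates, 6 were lower and 4 higher. The 3 with the smallest p were all lower, namely the adhesion molecule Icam1 at -0.51, the lipid receptor Trem2 at -0.79 and the membrane chemokine Cxcl16 at -0.43 log2 (adjusted p = 5.3e-05, 7.9e-05 and 0.000311). Of 12 listed ADAMTS substrates and partners, 2 were higher and 5 lower, led by the cytokine Tgfb1 at -0.47, the proteoglycan Ncan at 0.73 and the endothelial cadherin Cdh5 at 0.41 log2.

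Of 14 substrates and partners of lysyl oxidases, 3 were higher and 2 lower. The basement membrane collagens Col4a1 and Col4a2 rose by 0.32 ± 0.07 and 0.37 ± 0.06 log2 (adjusted p = 0.00224 and 0.000646), and Loxl4, a lysyl oxidase outside the rule, rose by 0.37 ± 0.09 (adjusted p = 0.004). Of 13 other listed metallopeptidases of the cell surface or secreted, 3 were higher and 3 lower. The 3 higher genes were Enpep, an aminopeptidase of angiotensin II, at 1.13 log2, the neprilysin gene Mme at 0.82 and Ece1, which makes endothelin, at 0.48 (adjusted p = 4.6e-05, 6e-05 and 7.6e-05). Of 16 listed AP-1, ETS and other transcription factors, 8 were lower and none was higher. Runx1 was at -0.40, the macrophage factor Spi1 at -0.60 and the AP-1 subunit Jund at -0.75 log2 (adjusted p = 9.6e-05, 0.000177 and 0.000301).

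Markers of cell types differed between the same mice. For macrophages, 9 of 10 markers were lower, with Adgre1 at -0.58 log2, and their summed level was 8945 to 11410 CPM in HFD and 5245 to 7908 in HFD + IMC mice. Of 7 listed markers of lipid-associated macrophages, 5 were lower, with Gpnmb at -0.82 log2 (11470 to 14890 against 9116 to 11430 CPM), and Spp1 was not listed. Cd36 and Fabp5 were not called, at 0.03 and -0.02 log2. Cd36 had the highest level of this list, 12.70 log2 CPM in HFD mice, and so weighs most in its sum. All 7 mast cell markers were lower, with Kit at -0.89 log2 (507 to 1157 against 161 to 326 CPM). Of 8 fibroblast markers, 6 were lower (3319 to 3856 against 2585 to 3086 CPM), and Pdgfra was not among them. These lists moved in the direction of the 22 lower members, such as Mmp12, Adam8 and Mmp2.

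All 8 adipocyte markers were higher, with Adipoq at 1.18 log2 (9018 to 12950 CPM in HFD and 17870 to 21880 in HFD + IMC mice), as Timp4, Lox and Mmp28 were. Of 7 mural cell markers, 3 were higher, Acta2 at 0.71 log2 among them (382 to 524 against 545 to 692 CPM), and of 7 endothelial markers 2 were higher, with Pecam1 not called (386 to 536 against 463 to 627 CPM). Of 5 listed mesothelial markers, 1 was lower (225 to 310 against 104 to 253 CPM), with Upk3b not called and Msln not listed. Dendritic cell markers had 1 higher and 1 lower of 4 (17.0 to 23.5 against 19.1 to 23.9 CPM), with Flt3 not called and Clec9a not listed. Only S100a8 of 6 neutrophil markers was listed and it was not called. Of 8 skeletal muscle markers 3 were listed and 2 were higher, Acta1 at 1.23 log2 (13.2 to 19.0 against 31.1 to 56.9 CPM). The part of these cell types in the members' differences was not tested.

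**Figure D5:**
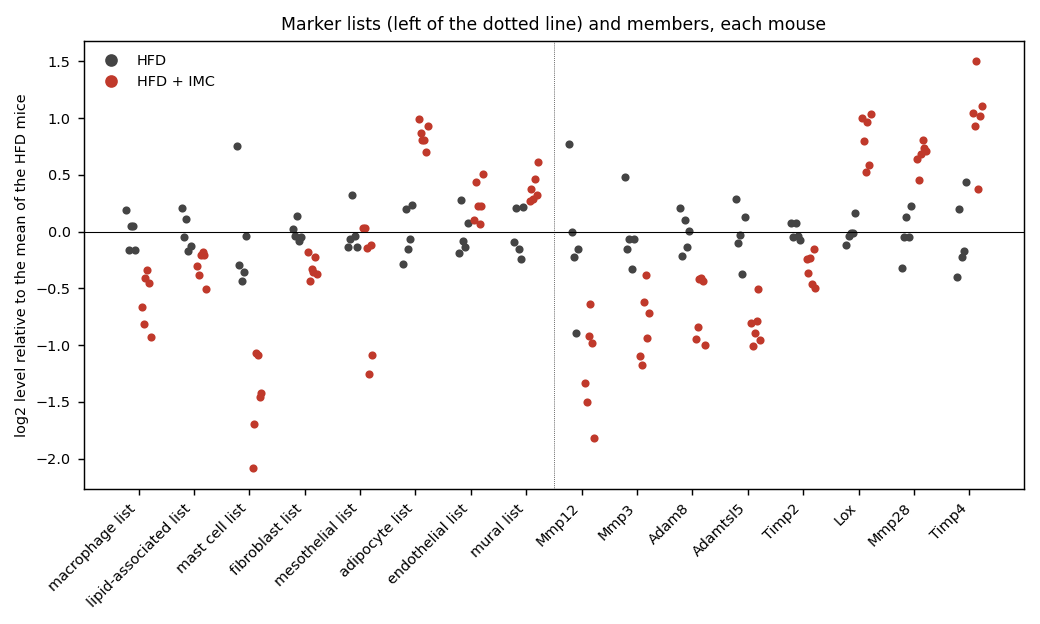
Level in each mouse as log2 relative to the mean of the HFD mice (y axis) for the summed CPM of 8 marker lists, left of the dotted line, and for 8 members, right of it. The macrophage, lipid-associated, mast cell and fibroblast lists lie below the controls in all HFD + IMC mice, as do Adam8, Mmp3, Adamtsl5 and Timp2. The adipocyte and mural lists lie above the controls, as do Lox and Mmp28. The mesothelial and endothelial lists, Mmp12 and Timp4 overlap between the groups.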

How the data were processed

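RNA of gonadal WAT from 5 HFD and 6 HFD + IMC mice was sequenced from directional libraries. Per the study methods, the authors ran Trim Galore and FastQC on the reads, aligned them to mm10 with STAR, which also gave the gene counts, and removed genes under 1 CPM in all samples. The authors scaled by the upper quartile and compared groups in edgeR. The deposited table holds log2 CPM per mouse, and these values were used as they stand. It also holds the authors' own log2 fold change, mean log2 CPM, likelihood ratio score, p-value and FDR, which were not used.

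Groups came from the sample labels. The groups were compared with limma 3.58.1 (R 4.3.3, lmFit and eBayes with trend, group as the only factor), with Benjamini-Hochberg adjustment over 12787 genes and a threshold of 0.05. No further filter was applied. The fit was tested on simulated data. The members and gene lists were chosen with earlier results of these data known. Values per mouse are given for members called with a change of at least 0.5 log2, and group means for other called members, every Timp and the highest member per subfamily. Of each pathway list the 3 genes with the smallest p are named, apart from 1 gene that is not reported here, and of each marker list the first gene.

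CPM moved in equal steps within a mouse, which gave the reads behind each value (whole within 0.01) and the depth. Intervals from reads would cover counting error only and were not used. Positions and upstream windows are from RefSeq (GRCm38.p6, the build of mm10), and transcript lengths and overlaps from GENCODE. Of 48 members, 25 overlap another gene's interval and 13 another gene's exons. Beside the members named with such an overlap above, these 13 include Adam15, Adam17, Adam19, Adamts7, Adamts9, Loxl2 and Loxl3. Exons of Loxl2 overlap Mir6950 on the same strand. The alternatives were 9 settings of filter, scaling, added constant and variance model, and leaving out each of the 11 mice.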

Additional observations from a re-analysis of the deposited data

Results flagged for a closer look

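A Dixon gap test over both groups of each member, 96 groups in all, singled out 2 values, where chance gives about 1 group in 20, or 4.8. Mmp9, the gelatinase without a call, was at 0.93 log2 CPM in HFD + IMC mouse 6, far below the next treated mouse at 1.45. Mmp15, which was higher with IMC, was at 3.56 log2 CPM in HFD mouse 2, above the other controls, of which the nearest was at 3.33. No cause was tested for either.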

How the results depend on the processing

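Over 20 alternatives, the number of lower members was 20 to 23 when single mice were left out and 20 to 22 otherwise, that of higher members 8 to 12 and 9 to 12, and that of all genes that differ 4299 to 5125 and 5053 to 5463. Of the 34 called members, 27 kept their call under every alternative. The other 7, Adamtsl2, Adamts1, Adamts2, Loxl1, Loxl2, Adam9 and Adam23, lost it in at least 1. Beside the losses without single mice, Adamtsl2, Adamts1, Loxl1 and Loxl2 lost it without the trend (adjusted p = 0.0541 to 0.0567), and Adamtsl2, Adamts1 and Adamts2 with total-count scaling (0.0545 to 0.0756). Of 960 recomputed differences of single members, 907 kept direction and side of the threshold, 46 fell short of it, 5 newly passed it and 2 reversed. Both reversals were of Adamts4, to -0.12 log2 without HFD mouse 5 and -0.01 without HFD + IMC mouse 1, within a range of -0.12 to 0.18 when single mice were left out, and neither was called. The cause of these changes was not tested. The scalings moved the median difference of all genes between -0.02 and -0.06 log2. Both filters kept all 48 members.

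No paired analysis was possible because the labels give no replicate numbers that tie a treated mouse to a control.

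Genes that were not listed could not be analysed here, so most of the chromosome 9 cluster was not compared. The count's strand setting was not given in the sources used here, which limits the 13 members whose exons overlap another gene. Protein, enzyme activity and activation of the proforms were not measured by these libraries.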
